A study of Mus musculus with 4 samples.

Results

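The cells described here were chief cells of the mouse stomach in which at least 1 transcript of Lgr5 was counted, set against chief cells in which none was counted. The authors' cells carried cluster numbers, and cluster 1 held 896 of 4449 cells. The members were chosen by the measured Lgr5 count alone. A cluster 1 cell was called Lgr5-detected when it had 1 or more Lgr5 UMIs (unique molecular identifiers, each counting 1 captured transcript) and undetected when it had 0. By this rule 269 cells were Lgr5-detected and 627 were undetected. The GFP+ 1, GFP+ 2, Epcam+ 1 and Epcam+ 2 libraries held 53, 92, 46 and 78 detected cells, against 92, 165, 154 and 216 undetected cells. Lgr5 set the groups, so its own level is a description and was left out of every test and count.

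All 4 libraries came from female mice with an H2b-GFP cassette knocked into Rosa26, made in C57BL6/N zygotes, in which a TRE3G promoter drives the histone-GFP fusion and an EF1a promoter drives the Tet-on 3G activator. The mice received doxycycline for 4 weeks from 4 weeks of age and were then chased for 6 weeks, to 14 weeks of age. Living Cd45-, Cd31-, Epcam+ stomach cells were sorted either for H2b-GFP (the GFP+ libraries) or without that gate (the Epcam+ libraries, labelled Ep+), 2 libraries of each. Sorted cells of 2 mice were combined for loading. Whether both libraries of a sort had separate mice is not given in the sources used here, so p-values cover the spread among libraries only, and that spread may be technical.

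Lgr5 is a receptor for R-spondins, secreted proteins that strengthen Wnt signaling. R-spondin binding keeps the ubiquitin ligases Znrf3 and Rnf43 from removing Frizzled receptors, and active Wnt signaling switches on Lgr5 itself together with feedback genes such as Axin2, Znrf3 and Sp5. Chief cells sit at the base of corpus glands and secrete digestive proenzymes, and in mice a part of them that expresses Lgr5 has been described as a reserve for the gland. In the GRCm38 annotation (GENCODE vM21), Lgr5 lies at chr10:115450311-115587780 on the minus strand.

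Genes are described below that act downstream of Wnt, and the sequences before the start sites of 3 of them are shown first because Wnt target genes are reached through TCF/LEF factors, which bind the motif CTTTGAT. These are the 250 bases before the RefSeq start of Sp5, a zinc finger transcription factor, of Tnfrsf19, which encodes the receptor Troy, and of Ascl2, a basic helix-loop-helix factor of intestinal stem cells. They come from RefSeq on GRCm38.p6, at chr2:70474673-70474922 on the plus strand for Sp5, at chr14:61037988-61038237 on the minus strand for 1 of the start sites of Tnfrsf19, and at chr7:142969265-142969514 on the minus strand for Ascl2. Capitals mark CTTTGAT on either strand.
Sp5: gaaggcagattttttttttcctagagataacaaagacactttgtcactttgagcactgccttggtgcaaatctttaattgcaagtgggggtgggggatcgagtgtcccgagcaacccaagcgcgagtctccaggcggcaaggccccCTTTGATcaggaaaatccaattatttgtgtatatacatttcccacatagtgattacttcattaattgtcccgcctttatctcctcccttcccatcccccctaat
Tnfrsf19: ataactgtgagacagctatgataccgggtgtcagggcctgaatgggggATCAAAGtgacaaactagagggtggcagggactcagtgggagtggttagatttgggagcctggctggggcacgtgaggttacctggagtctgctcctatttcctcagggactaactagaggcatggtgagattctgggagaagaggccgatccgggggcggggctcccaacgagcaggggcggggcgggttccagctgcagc
Ascl2: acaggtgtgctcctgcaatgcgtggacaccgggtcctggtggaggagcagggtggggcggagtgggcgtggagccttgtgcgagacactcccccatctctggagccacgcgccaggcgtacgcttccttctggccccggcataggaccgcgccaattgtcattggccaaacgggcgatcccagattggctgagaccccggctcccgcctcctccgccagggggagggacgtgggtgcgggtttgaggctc
The motif began 104 bases before the start in Sp5 and, on the reverse strand, 202 bases before it in this window of Tnfrsf19, and these letters were neither in its other window nor in that of Ascl2. It stood in 2 of the 9 windows, from 7 genes, that the table holds for the tested Wnt feedback and target genes. The share was 3.21% of all 32851 windows of this length, 2.22% of the 9360 windows of genes tested below, 2 of 47 windows (4.26%) for genes higher in detected cells and 2 of 36 (5.56%) for genes lower in detected cells. The matches for the Wnt list and for genes higher in detected cells are the same 2 windows, those of Sp5 and Tnfrsf19 shown above. A match describes letters in a window and not a bound site.

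The number of UMIs per cell differed between the groups, which bears on whether an Lgr5 transcript was seen at all. The median UMIs per cell were 182639, 177085, 124632 and 106352 in detected cells of GFP+ 1, GFP+ 2, Epcam+ 1 and Epcam+ 2, against 160306, 160815, 124386 and 103933 in undetected cells. All later lists of 4 values follow this order of libraries. The ratio of the medians was 1.14 and 1.10 in the GFP+ libraries and 1.00 and 1.02 in the Epcam+ libraries. The 3 genes Clps, Pla2g1b and Pgc took between 80.7% and 82.4% of the UMIs of detected cells, against between 82.1% and 83.1% in undetected cells. Outside these genes the medians were 30142, 29420, 21439 and 19481 UMIs in detected cells, against 25272, 26490, 19251 and 18005 in undetected cells, a ratio of 1.19, 1.11, 1.11 and 1.08. Detected cells thus had more UMIs in every library.

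**Figure D1:**
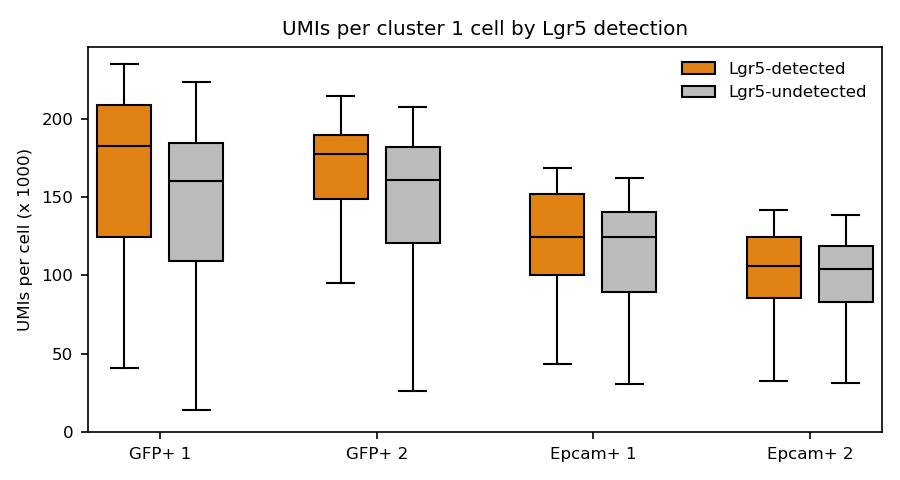
UMIs per cell (y axis) of Lgr5-detected and undetected cluster 1 cells in each library (x axis), with medians as lines, quartiles as boxes and the 5th and 95th percentiles as whiskers. The medians of detected cells lie above those of undetected cells by a ratio of 1.14 and 1.10 in the GFP+ libraries and of 1.00 and 1.02 in the Epcam+ libraries.

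Most detected cells held a lone Lgr5 transcript. In all, 152 cells had 1 Lgr5 UMI, 53 had 2, 28 had 3 and 36 had 4 or more, with a maximum of 14, and the 269 detected cells held 536 Lgr5 UMIs. In the summed counts Lgr5 stood at 14.3, 12.6, 14.1 and 17.5 CPM (UMIs scaled to a common total per sum, here without TMM factors) in detected cells, and at 0 in undetected cells by construction. Cells just inside the rule had 1 UMI and those just outside had 0, so an undetected cell is not shown to lack the transcript. Within each library, the 25% of cells with the most UMIs outside the 3 genes held an Lgr5 UMI in 61.1%, 51.6%, 32% and 36.5% of cells, against 32.4%, 20%, 16% and 21.6% in the 25% of cells with the fewest. The deepest cells had a higher share than the shallowest in all 4 libraries, but the steps between were uneven in the GFP+ libraries, where the groups of 25% in between held, from shallower to deeper, 19.4% and 33.3% in GFP+ 1 and 40.6% and 31.3% in GFP+ 2.

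An Lgr5 UMI was found in 36.6% and 35.8% of cluster 1 cells in the GFP+ libraries (95% Wilson intervals 29.2 to 44.6% and 30.2 to 41.8%), against 23.0% and 26.5% in the Epcam+ libraries (17.7 to 29.3% and 21.8 to 31.9%). The sorts did not overlap, but with 2 libraries a side the two-sided exact permutation test gave p = 0.33, the smallest it can give. In pit cells (cluster 2), surface mucous cells not known for Lgr5, the share was 4.76% (2 of 42 cells) and 0% in the GFP+ libraries, where 0 of 27 cells allows up to 11.1%, against 0.551% and 0.664% in the Epcam+ libraries. Mucous neck cells (cluster 0) had 16.4% and 10.3% in the GFP+ libraries, against 7.94% and 3.02% in the Epcam+ libraries, also without overlap. Chief cells of cluster 5 had 64.5% and 37.5% in the GFP+ libraries, against 43.5% and 42.9% in the Epcam+ libraries. An Lgr5 UMI was thus not particular to cluster 1. The median UMIs per cell were 163589, 165757, 124386 and 104376 in cluster 1 and 66631, 63533, 39342 and 34707 in pit cells. They were 36108, 39003, 25664 and 24316 in cluster 5 and 34587, 31133, 24843 and 21521 in neck cells. The clusters are thus set side by side at unlike depth. Outside the 3 genes the medians were between 18439 and 27289 UMIs in cluster 1, against 34233 to 66125 in pit cells. They were 14174 to 22380 UMIs in cluster 5 and 18444 to 26825 UMIs in neck cells. The intervals cover counting error only. When every cell was thinned to 49232 UMIs, leaving out 16 and 18 shallower GFP+ cells and 24 and 32 Epcam+ cells, the shares were 22.5% and 16.7% in GFP+ libraries, against 11.4% and 17.2% in Epcam+ libraries. The sorts then overlapped (exact permutation p = 0.667).

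The label of the cells was checked against markers in both groups. The 10 chief cell markers, among them pepsinogen (Pgc) and colipase (Clps), summed, in CPM without TMM factors as for all sums of markers here, to between 839204 and 845892 CPM in detected cells, against 842323 to 850013 CPM in undetected cells. Clps, Pla2g1b and Pgc make up most of this sum. All 10 were tested as described below. In detected cells 1 was called higher (Cblif) and 4 lower (Try4, Try10, Clps and Furin), beside 0.494% and 0.45% of all genes tested. The 6 markers of mucous neck cells summed to between 104 and 738 CPM in detected cells and between 169 and 678 CPM in undetected cells, and 3 of them were tested with no call. Of the 5 isthmus markers 2 were tested, of the 5 endocrine markers 4, and all 3 parietal and all 5 pit cell markers, with no call among them. The isthmus markers, which include the proliferation genes Mki67 and Top2a, summed to between 6.46 and 10.0 CPM in detected cells and between 4.87 and 8.48 CPM in undetected cells. The endocrine markers summed to between 11.0 and 181 CPM in detected cells, against 22.7 to 70.4 CPM in undetected cells, and the highest sum was that of detected cells in GFP+ 1. Tuft cell markers reached at most 0.53 CPM in detected cells and 0.407 CPM in undetected cells, with Trpm5 and Pou2f3 at 0 throughout. Ptprc and Pecam1 were at 0, as the authors' cell filter sets them.

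Raw UMIs were summed per library and group, and the 8 sums were compared in edgeR by its quasi-likelihood test, the library being a block, so that each detected sum was set against the undetected sum of its own library. The sums held between 5664072 and 15353797 UMIs in detected cells, against between 13140464 and 23963481 in undetected cells. Of 9115 genes tested, 86 passed an adjusted p of 0.05 (0.943%), of which 45 were higher in detected cells (0.494%) and 41 were lower (0.45%). An unadjusted p under 0.05 was found for 940 of the 9115 genes. The median log2 difference of all genes tested was -0.01, and in 372 genes (4.08%) the 4 detected values did not overlap the 4 undetected values. Without GFP+ 2 the number of calls was 55. The split depends on the scaling, since with library totals in place of TMM factors (trimmed mean of M values, which correct for composition) 97 genes were higher and 27 lower, with the median of all genes at 0.05. Levels below are TMM-normalized CPM, log2 differences are detected minus undetected with their standard errors (SE), and means carry the SD over 4 libraries. The SE was derived from the quasi-likelihood test, as the absolute log2 difference over the square root of its F statistic.

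Some genes that Wnt signaling is known to induce were higher in detected cells, in a list chosen with earlier results of these data known. Of 29 listed Wnt feedback and target genes, 26 were in the table and 14 passed the filter on low counts. In edgeR 5 of them were higher in detected cells and 0 were lower, beside the background of 0.494%. The 5 were Sp5, Tnfrsf19, Ascl2, Smoc2 and Znrf3. In DESeq2, which gave no adjusted p for Ascl2 and Smoc2, 2 of the 14 passed (Sp5 and Tnfrsf19), with no replicate block 1 did (Tnfrsf19), and without GFP+ 1 Smoc2 and Znrf3 no longer did. The median log2 difference of the 14 was 0.59, beside -0.01 over all genes tested, and with no filter it was 0.46 over 23 members, 18 of them above 0. Since a low gene can pass the filter through the group in which it is high, the sum of the whole list was taken too, which was 100.3, 73.9, 94.6 and 82.9 CPM in detected cells, against 72.8, 66.9, 66.3 and 63.2 CPM in undetected cells. The sum includes the 5 called genes, so it describes the list and is not separate support for it.

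Sp5 encodes a transcription factor that acts as a direct target and feedback regulator of Wnt signaling and lies at chr2:70474923-70477729. It stood at 14.5, 6.93, 12.1 and 4.98 CPM in detected cells, against 5.08, 2.54, 5.52 and 2.94 CPM in undetected cells. Every library showed the higher level in its detected cells, although the ranges overlapped because the libraries differed among themselves. The log2 difference was 1.25 (SE 0.13, edgeR adjusted p = 1.79e-07), from 341 UMIs in detected and 279 in undetected cells.

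Tnfrsf19 (chr14:60963875-61046490) encodes Troy, a Wnt-induced receptor of the tumor necrosis factor receptor family and a described marker of reserve chief cells. Its level was 8.92, 6.93, 4.68 and 6.71 CPM in detected cells, against 4.36, 3.15, 3.09 and 3.31 CPM in undetected cells. Here the groups did not overlap, and the means were 6.81 ± 1.73 CPM in detected cells and 3.48 ± 0.599 CPM in undetected cells (SD, n = 4 each). The log2 difference was 0.99 (SE 0.14, edgeR adjusted p = 3.98e-05).

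Ascl2 (chr7:142966829-142969264) and Smoc2 (chr17:14279506-14404790) belong to the genes known from Lgr5-expressing intestinal stem cells, Ascl2 as a transcription factor and Smoc2 as a secreted calcium-binding matrix protein. Ascl2 stood at 4.52, 1.61, 4.86 and 3.59 CPM in detected cells, against 1.82, 1.08, 1.90 and 1.02 CPM in undetected cells (log2 difference 1.27, SE 0.21, edgeR adjusted p = 0.000745). Smoc2 stood at 3.24, 2.02, 2.60 and 1.27 CPM in detected cells, against 1.03, 1.12, 0.653 and 0.559 CPM in undetected cells (log2 difference 1.34, SE 0.26, edgeR adjusted p = 0.00443). Both were higher in 4 of 4 libraries, and the groups overlapped for Ascl2 but not for Smoc2. Both are low genes, with 122 and 84 UMIs in all detected cells and 102 and 62 in all undetected cells. Without GFP+ 1, Smoc2 had an adjusted p of 0.0551.

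Of the negative regulators of the pathway, Znrf3 passed and Axin2 did not. Znrf3 (chr11:5276324-5444847), the ligase that removes Frizzled receptors and that R-spondin and Lgr5 restrain, stood at 4.63, 3.70, 4.68 and 4.40 CPM in detected cells, against 2.22, 2.67, 3.15 and 2.05 CPM in undetected cells. The groups did not overlap (log2 difference 0.77, SE 0.17, edgeR adjusted p = 0.0148), but the adjusted p was 0.188 without Epcam+ 2 and 0.0986 without GFP+ 1. Axin2 (chr11:108920349-108950783), the scaffold of the beta-catenin destruction complex, stood at 3.13, 2.02, 2.08 and 2.08 CPM in detected cells, against 1.67, 1.47, 1.07 and 0.932 CPM in undetected cells. Its groups did not overlap either, but the log2 difference of 0.82 (SE 0.23) missed the threshold (edgeR adjusted p = 0.0972). Of 16 alternatives with a value, Axin2 passed in 1, with cells matched on total UMIs (log2 difference 1.10, edgeR adjusted p = 0.0388). Ephb2, an ephrin receptor and Wnt target of the intestinal crypt, also missed the threshold (log2 difference 0.81, SE 0.25, adjusted p = 0.153). Sox9, a transcription factor of progenitor cells, had 28.8, 21.4, 28.1 and 31.6 CPM in detected cells, against 27.4, 27.2, 27.2 and 29.3 CPM in undetected cells (log2 difference -0.04, SE 0.07, adjusted p = 0.933). The other 6 tested members, Rnf43, Ephb3, Myc, Ccnd1, Zfp703 and Slc12a2, had log2 differences between -0.24 and 0.42 and adjusted p-values between 0.39 and 0.992.

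**Figure D2:**
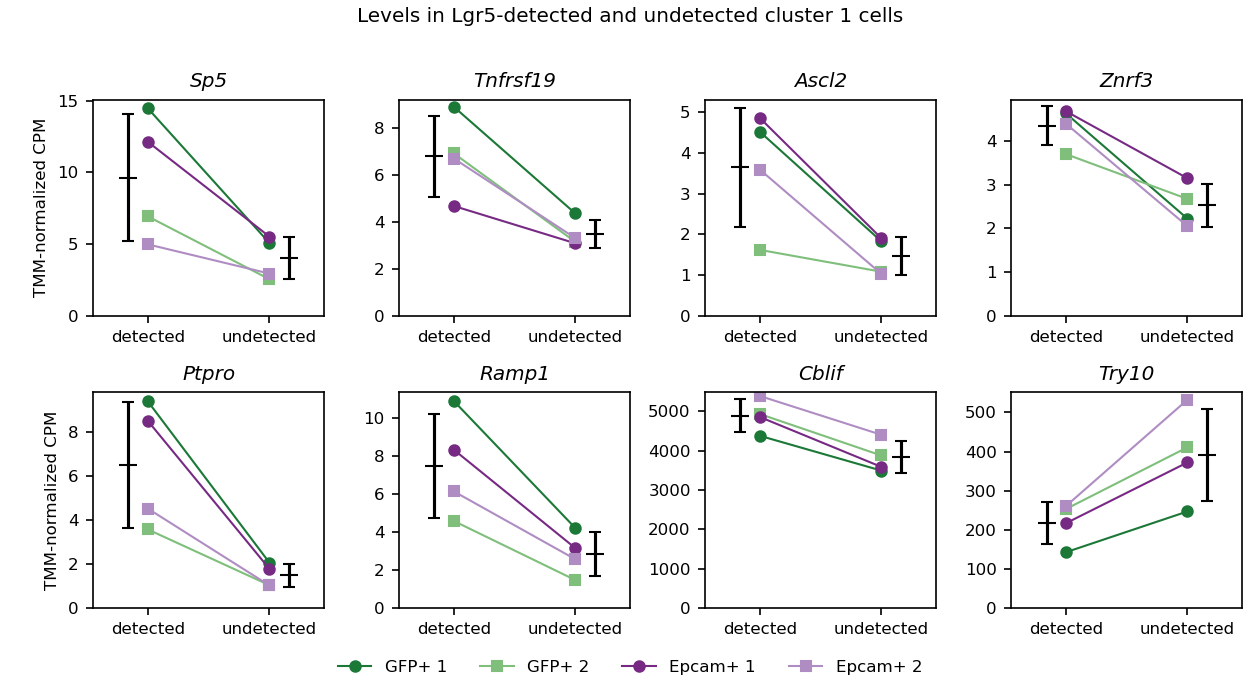
TMM-normalized CPM (y axis) of 8 genes in Lgr5-detected (left) and undetected (right) cluster 1 cells, a colored line for each library and the mean ± SD over 4 libraries in black. Sp5, Tnfrsf19, Ascl2, Znrf3, Ptpro, Ramp1 and Cblif are higher and Try10 is lower in detected cells in 4 of 4 libraries.

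Receptors and signal transducers of the pathway showed no call. Of 30 listed genes 23 were tested, among them Frizzled receptors, Lrp co-receptors, Ctnnb1 and Apc, and 0 passed in edgeR, with 2 at an unadjusted p under 0.05 and a median log2 difference of 0.04. Over all genes tested, 940 of 9115 had an unadjusted p under 0.05. The listed genes summed to between 139 and 148 CPM in detected cells, against 134 to 142 CPM in undetected cells.

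The depth of the cells and the rule for detection were varied for the 5 Wnt genes. When each detected cell was paired with an undetected cell of the same library and of like total UMIs, the log2 differences of Sp5, Tnfrsf19, Ascl2, Smoc2 and Znrf3 were 1.19, 1.24, 1.32, 1.55 and 0.78, and all 5 passed. Matched on UMIs outside the 3 genes they were 1.26, 0.97, 1.49, 1.26 and 1.11, and Smoc2 no longer passed (adjusted p = 0.0512). Among cells thinned to 49232 UMIs and split again, Sp5, Tnfrsf19 and Znrf3 had log2 differences of 1.21, 1.10 and 1.13 and passed, and Ascl2 and Smoc2 fell below the filter on low counts. With cells of exactly 1 Lgr5 UMI against 0, the log2 differences were 1.18, 0.71, 0.95, 0.63 and 0.71 and none of the 5 passed. With 2 or more UMIs against 0 they were 1.40, 1.26, 1.56, 1.87 and 0.81 and all 5 passed. In a limma-trend fit to the mean of per-cell CPM, in which each cell weighs the same, Sp5 passed (adjusted p = 0.0112), and the adjusted p-values of Tnfrsf19, Ascl2, Smoc2 and Znrf3 were 0.547, 0.108, 0.0662 and 0.339.

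Of the described markers of reserve chief cells or other stomach stem cells, 3 of 14 tested genes were higher in detected cells and 0 were lower in edgeR, beside the same background of 0.494%. These were Cblif, Tnfrsf19 and Smoc2, and Tnfrsf19 and Smoc2 also stand in the Wnt list. Cblif encodes gastric intrinsic factor, the carrier of vitamin B12 that mouse chief cells secrete. It stood at 4379, 4933, 4858 and 5393 CPM in detected cells, against 3494, 3879, 3589 and 4406 CPM in undetected cells, and was higher in 4 of 4 libraries (log2 difference 0.35, SE 0.03, edgeR adjusted p = 1.51e-09). Bhlha15, which encodes Mist1, the transcription factor of the secretory apparatus, stood at 36.3, 23.0, 30.9 and 23.1 CPM in detected cells, against 27.1, 21.8, 21.3 and 20.6 CPM in undetected cells. It was higher in 4 of 4 libraries and just missed the threshold (log2 difference 0.29, SE 0.07, adjusted p = 0.0535), and its adjusted p over the alternatives ran from 0.0103 to 1.0.

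None of the other reserve markers passed in edgeR. Gper1, an estrogen receptor of the G protein-coupled kind, averaged 60.5 ± 7.81 CPM in detected cells and 60.9 ± 3.07 CPM in undetected cells (SD, n = 4 each, log2 difference -0.02). Cdkn1c, which encodes the cyclin-dependent kinase inhibitor p57, averaged 227 ± 40.6 CPM in detected cells and 261 ± 28.6 CPM in undetected cells (log2 difference -0.21, SE 0.08, adjusted p = 0.437). Cdkn1c did pass, as lower in detected cells, without GFP+ 1 (-0.31, adjusted p = 6.08e-05), with 2 or more Lgr5 UMIs (-0.33, 0.0168), with no filter (-0.23, 1.06e-05) and within the Epcam+ libraries (-0.36, 0.042). Bmi1, a Polycomb protein, averaged 3.07 ± 0.286 CPM in detected cells and 3.08 ± 0.529 CPM in undetected cells. Stmn1, a microtubule regulator used to mark the isthmus, averaged 1.36 ± 0.395 CPM in detected cells and 0.93 ± 0.605 CPM in undetected cells (log2 difference 0.50, SE 0.31, adjusted p = 0.622). Runx1, Lrig1, Sox2, Prom1 and Cckbr had log2 differences between -0.35 and 0.47 with adjusted p-values between 0.396 and 0.989. Aqp5, Cd44, Procr, Mex3a, Ccnb1 and Iqgap3 fell below the filter.

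The largest rise of all named genes was in Ptpro, a receptor-type tyrosine phosphatase (chr6:137252319-137463233), which was chosen after its values were seen. It stood at 9.38, 3.57, 8.50 and 4.51 CPM in detected cells, against 2.06, 1.03, 1.78 and 1.02 CPM in undetected cells. Every detected sum was above every undetected sum, from 222 UMIs in the 269 detected cells and 102 UMIs in the 627 undetected cells (log2 difference 2.09, SE 0.17, edgeR adjusted p = 8.97e-10). Ramp1 (chr1:91179822-91225196), the partner protein of the calcitonin gene-related peptide receptor, was chosen in the same way and stood at 10.9, 4.57, 8.32 and 6.13 CPM in detected cells, against 4.21, 1.47, 3.15 and 2.56 CPM in undetected cells. Its groups did not overlap (log2 difference 1.41, SE 0.14, adjusted p = 7.73e-08). Ptpro and Ramp1 also passed with exactly 1 Lgr5 UMI, with log2 differences of 1.62 and 1.13 (adjusted p = 0.00531 for both), and without each library in turn.

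The levels of Lgr5-linked genes were then followed over the number of Lgr5 UMIs in a cell. Ptpro averaged 1.49 ± 0.53 CPM in cells with 0, 4.56 ± 1.97 CPM with 1 and 9.02 ± 5.73 CPM with 2 or more Lgr5 UMIs (SD, n = 4 libraries), and stepped up in this order in 3 of 4 libraries. Tnfrsf19 averaged 3.50 ± 0.597, 5.33 ± 1.61 and 8.43 ± 2.27 CPM and stepped up in 4 of 4 libraries. Ascl2, Smoc2, Ramp1, Ifitm3, Soat1 and Cblif also stepped up in 4 of 4 libraries, and Sp5 did so in 1. Lpl and Try10 stepped down in 4 of 4, Lpl from 38.9 ± 2.36 CPM with 0 through 29.2 ± 3.94 to 19.6 ± 2.13 CPM with 2 or more. These are descriptions, since the cells were ordered by the rule itself.

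**Figure D3:**
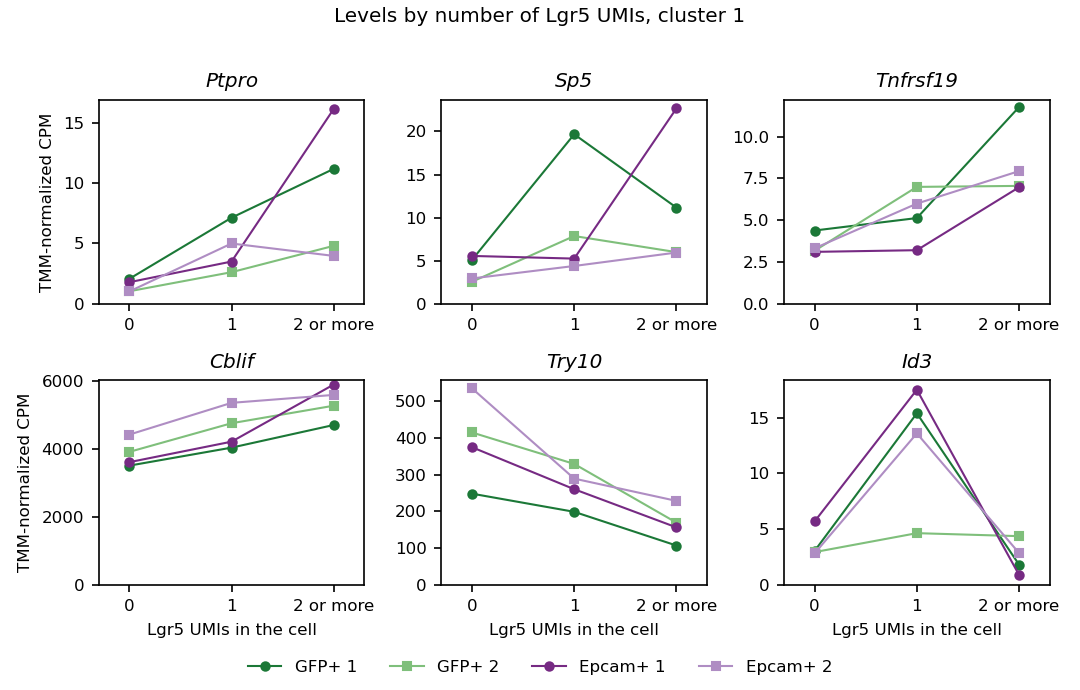
TMM-normalized CPM (y axis) of 6 genes in cluster 1 cells with 0, 1 or 2 or more Lgr5 UMIs (x axis), a line for each library. Tnfrsf19 and Cblif step up and Try10 steps down in 4 of 4 libraries, and Id3 peaks at 1 UMI.

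Id3 did not follow such an order. It encodes an inhibitor of basic helix-loop-helix factors and is a known target of BMP signaling. Its level was 7.30, 4.44, 10.8 and 9.02 CPM in detected cells, against 3.02, 2.89, 5.64 and 2.80 CPM in undetected cells (log2 difference 1.12, SE 0.15, edgeR adjusted p = 3.98e-05). By the number of Lgr5 UMIs it averaged 3.61 ± 1.38 CPM with 0, 12.8 ± 5.67 CPM with 1 and 2.46 ± 1.49 CPM with 2 or more. Cells with 2 or more against 0 gave a log2 difference of -0.25 (adjusted p = 0.87), thinned cells gave 0.04, and 1 detected cell held 18.6% of all Id3 UMIs of the detected group.

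The other named rises covered several functions. Ifitm3, an interferon-induced membrane protein, stood at 43.8, 42.1, 31.0 and 51.3 CPM in detected cells, against 22.3, 22.7, 19.8 and 27.3 CPM in undetected cells (log2 difference 0.87, SE 0.07, edgeR adjusted p = 2.1e-10). Its groups did not overlap, and it passed in all 18 alternatives that keep libraries of both sorts. Soat1, the enzyme that esterifies cholesterol, stood at 49.8, 37.0, 41.1 and 43.2 CPM in detected cells, against 30.0, 25.6, 27.0 and 29.0 CPM in undetected cells (log2 difference 0.61, SE 0.06, adjusted p = 7.73e-08). Mug1, a murinoglobulin protease inhibitor with a near-identical paralog that makes its counts uncertain, stood at 314, 203, 270 and 264 CPM in detected cells, against 134, 115, 108 and 114 CPM in undetected cells (log2 difference 1.14, SE 0.09, adjusted p = 0.00479). The adjusted p of Mug1 was 0.235 without Epcam+ 2, 0.0646 matched on total UMIs, 0.198 matched on UMIs outside the 3 genes and 0.0649 with library totals. Pcp4l1, a PCP4-like protein, averaged 12.7 ± 8.92 CPM in detected cells and 4.72 ± 1.83 CPM in undetected cells (log2 difference 1.32, SE 0.17, adjusted p = 0.00241).

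Among genes of redox and amino acid metabolism, the peroxidase Gpx1 averaged 30.9 ± 3.26 CPM in detected cells and 22 ± 5.11 CPM in undetected cells. The cysteine dioxygenase Cdo1 averaged 22.9 ± 3.97 CPM in detected cells and 15.8 ± 2.69 CPM in undetected cells. Their log2 differences were 0.52 and 0.54 (SE 0.07 and 0.08, edgeR adjusted p = 4.35e-05 and 0.000125). Filip1l, the secreted glycoprotein gene Mfge8 and the monocarboxylate transporter gene Slc16a7 rose as well, with log2 differences of 0.53, 0.49 and 0.49. Slc16a7 lost the call without Epcam+ 2 (adjusted p = 0.053) and without GFP+ 2 (0.111). Ccnd2, a G1 cyclin, averaged 75.4 ± 7.46 CPM in detected cells and 60 ± 7.31 CPM in undetected cells without overlap (log2 difference 0.33, SE 0.05, adjusted p = 8.75e-05). It was the only call among 12 tested genes of G1 control, beside 0.494% of all genes tested that were higher. The keratin Krt7 passed at a low level (2.96 ± 0.762 CPM in detected cells and 1.59 ± 0.244 CPM in undetected cells), and its adjusted p lay between 0.0655 and 0.194 without any of the libraries in turn.

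Stress genes showed few calls. Of 25 tested targets of the Atf4 and integrated stress response, 1 passed as higher, Asns, which encodes asparagine synthetase, beside 0.494% of all genes tested. Asns stood at 221, 206, 211 and 195 CPM in detected cells, against 171, 182, 168 and 161 CPM in undetected cells. Its groups did not overlap, and the log2 difference was 0.29 (SE 0.04, edgeR adjusted p = 5.13e-05). The median of the 25 was 0.12, and 20 of them were above 0, with 6 at an unadjusted p under 0.05. Over all genes tested, 940 of 9115 were at an unadjusted p under 0.05, which also stands beside the counts that follow. None of 24 genes of the endoplasmic reticulum unfolded protein response passed, with 6 at an unadjusted p under 0.05 and a median of -0.01. Of 20 cytosolic heat shock genes 1 passed, again beside 0.494%, the co-chaperone Bag3 (log2 difference 0.54, SE 0.12, adjusted p = 0.0196), whose adjusted p was 0.11 without GFP+ 1 and 0.337 without GFP+ 2. The median of these 20 heat shock genes was 0.09, with 15 above 0 and 6 at an unadjusted p under 0.05. None of 20 immediate-early genes passed, with 3 at an unadjusted p under 0.05.

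Secretory products moved in both directions. Of 30 listed products 13 were tested, and in edgeR 2 were higher and 4 lower in detected cells, beside backgrounds of 0.494% and 0.45%. The rises were Cblif and the lipase-related Pnliprp2, which averaged 904 ± 135 CPM in detected cells and 747 ± 122 CPM in undetected cells (log2 difference 0.28, SE 0.03, adjusted p = 6.94e-06). The falls were the trypsinogen genes Try4, Try5 and Try10 and the colipase gene Clps. Pgc and Pla2g1b, the other most abundant products, did not pass (log2 differences -0.07 and 0.02, adjusted p = 0.317 and 0.881). Chia1, an acidic chitinase, was higher in 4 of 4 libraries but did not pass (log2 difference 0.55, adjusted p = 0.481).

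Try10 stood at 142, 253, 217 and 260 CPM in detected cells, against 247, 411, 372 and 532 CPM in undetected cells. It was lower in the detected cells of every library, with a log2 difference of -0.83 (SE 0.04, edgeR adjusted p = 1.29e-11), the smallest p of all genes tested. Matched on UMIs outside the 3 genes, the log2 difference was the same at -0.83 with an adjusted p of 0.127, and with exactly 1 Lgr5 UMI it was -0.52 (adjusted p = 0.104). Try4 stood at 311, 609, 293 and 515 CPM in detected cells, against 816, 1423, 989 and 1427 CPM in undetected cells. Its groups did not overlap, yet the call was weak (log2 difference -1.46, SE 0.10, adjusted p = 0.0374) and ended without Epcam+ 2 (0.343) or GFP+ 1 (0.239). Try5 had only 60 UMIs in detected and 638 in undetected cells, and 1 undetected cell held 69.9% of the UMIs of the undetected group. The trypsinogen genes are a family of near-identical copies side by side on chromosome 6, so the division of reads among them is uncertain. Clps averaged 345088 ± 15193 CPM in detected cells and 380582 ± 2035 CPM in undetected cells without overlap (log2 difference -0.14, SE 0.03, adjusted p = 0.00127). Furin, the convertase that cleaves proproteins, was the only call among 21 tested processing and granule genes, beside 0.45% of all genes tested that were lower. Its log2 difference was -0.18 (SE 0.04, edgeR adjusted p = 0.00448), and it lost the call without GFP+ 1 (0.0763) or GFP+ 2 (0.203). Matched on total UMIs the log2 difference of Furin was -0.12 (adjusted p = 0.0978), matched on UMIs outside the 3 genes it was -0.07 (0.582), and with library totals it was -0.13 (0.267).

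Further genes fell. Lpl, lipoprotein lipase, stood at 21.3, 26.7, 26.9 and 22.3 CPM in detected cells, against 35.2, 39.9, 39.6 and 39.9 CPM in undetected cells (log2 difference -0.67, SE 0.07, edgeR adjusted p = 5.52e-08). Car2, a carbonic anhydrase, stood at 24.8, 18.4, 19.9 and 16.4 CPM in detected cells, against 31.6, 28.0, 32.7 and 34.9 CPM in undetected cells (log2 difference -0.68, SE 0.09, adjusted p = 0.000602). Selenop, the secreted selenium carrier, stood at 178, 210, 176 and 178 CPM in detected cells, against 272, 290, 214 and 226 CPM in undetected cells (log2 difference -0.43, SE 0.04, adjusted p = 7.1e-07). None of these groups overlapped. The kinase Sgk1 and the mucin glycosyltransferase Gcnt3, chosen after their values were seen, fell by 1.07 and 1.13 on the log2 scale from low levels (2.90 ± 1.28 CPM in detected cells and 6.01 ± 2.00 CPM in undetected cells for Sgk1, 1.65 ± 0.553 CPM in detected cells and 3.82 ± 1.38 CPM in undetected cells for Gcnt3). Without GFP+ 2 the adjusted p of Sgk1 was 0.0776. The remaining falls of the naming rule, Fam3c, Necab1, Tubb4b, Swt1 and 2300009A05Rik, had log2 differences between -0.46 and -0.38. Each lost its call when a library was left out (adjusted p between 0.107 and 0.33), Fam3c without GFP+ 1, Epcam+ 1 or Epcam+ 2, Necab1 without GFP+ 1 or Epcam+ 2, Tubb4b and Swt1 without GFP+ 2, and 2300009A05Rik without GFP+ 2 or Epcam+ 2.

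Broad gene groups moved little. Of 80 tested cytosolic ribosomal protein genes 2 passed, Rps12 and Rplp1, both lower, beside 0.45% of all genes tested (log2 differences -0.15 and -0.13), and neither passed without any of the libraries in turn (adjusted p between 0.0739 and 0.25). In 47 of the 80 the level was lower in 4 of 4 libraries, beside 10.02% of all genes tested. The median of the 80 was -0.06, with 25 at an unadjusted p under 0.05, beside 940 of all 9115 genes tested. This direction depends on the scaling. With TMM factors the listed genes summed to between 19992 and 21625 CPM in detected cells, against 20918 to 22314 CPM in undetected cells. Without TMM factors the sums were between 20725 and 21923 CPM in detected cells, against 20476 to 21421 CPM in undetected cells. None of the 13 mitochondrially encoded genes passed, with 6 at an unadjusted p under 0.05, and mitochondrial UMIs made up a median of 1.18% to 1.37% per detected cell, against 1.20% to 1.4% per undetected cell. Sult1c2, a sulfotransferase, was the only call among 10 tested genes of the pit cell list (log2 difference -0.32), beside 0.45% of all genes tested. Its adjusted p lay between 0.0698 and 0.218 without any of the libraries in turn. Id3 was the only call among 14 tested Notch, BMP and EGFR pathway genes, and Krt7 the only call among 10 tested metaplasia-linked genes. Both were higher, beside 0.494% of all genes tested. None passed among the 8 tested genes of the longer neck cell list, 7 of the isthmus and proliferation list, 5 of the endocrine list, 10 of the parietal list and 1 of the immune, endothelial and stromal list, with 1, 0, 0, 5 and 0 at an unadjusted p under 0.05, and no gene of the tuft cell list reached the filter. None of 22 gastric lineage transcription factors and none of 22 lysosome and autophagy genes passed, with 5 and 4 at an unadjusted p under 0.05. The share of 940 in 9115 stands beside each such count in this paragraph.

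**Figure D4:**
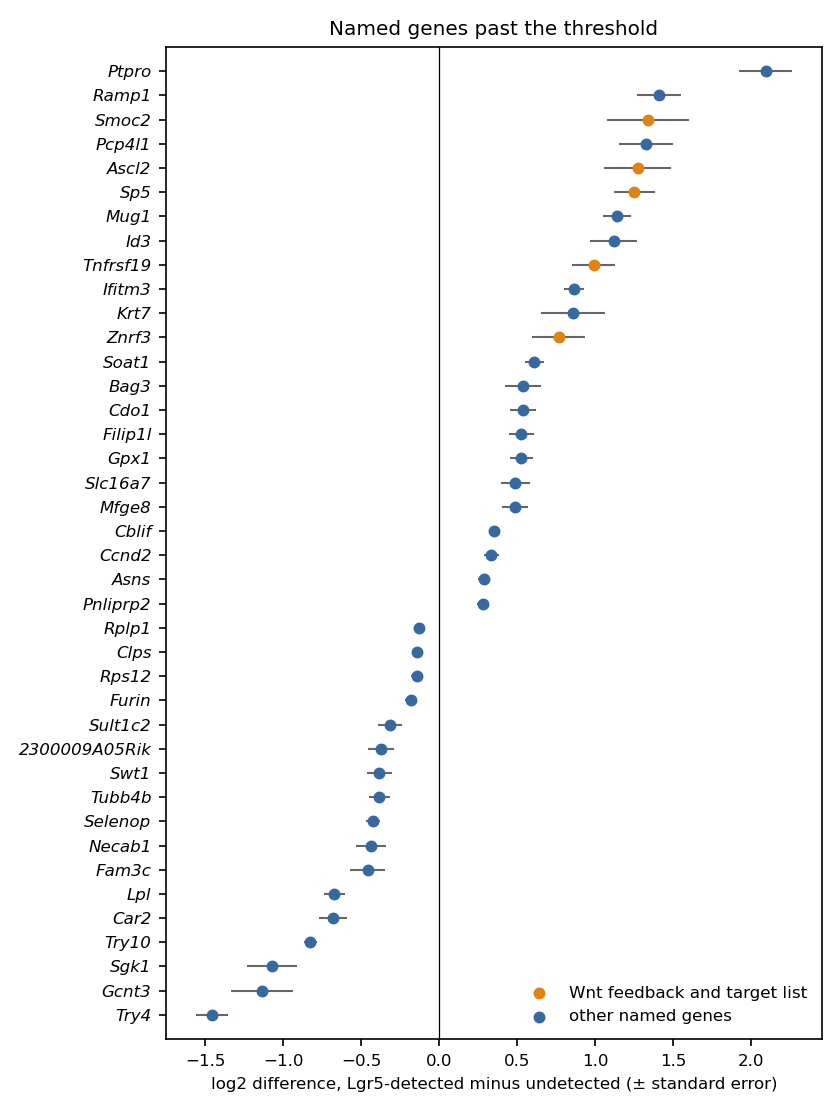
Log2 difference between Lgr5-detected and undetected cluster 1 cells (x axis, detected minus undetected, with the standard error as bars) of the named genes that passed, except Try5, with the Wnt list in orange. Ptpro has the largest rise at 2.09 and Try4 the largest fall at -1.46.

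Whether the difference between detected and undetected cells was the same in both sorts was tested as an interaction in the same 8 sums. A difference between GFP+ and Epcam+ libraries passed for 1 of 9115 genes (0.011%), with 378 genes at an unadjusted p under 0.05, where DESeq2 passed 0. The gene was Fabp5, a fatty acid-binding protein. It stood at 64.1 and 73.7 CPM in detected cells of the GFP+ libraries, against 97.0 and 95.6 CPM in their undetected cells, and at 59.7 and 51.7 CPM in detected cells of the Epcam+ libraries, against 122 and 126 CPM in their undetected cells. Fabp5 was lower in the detected cells of 4 of 4 libraries, and the log2 difference was 0.68 larger (less negative) in GFP+ libraries (SE 0.11, edgeR adjusted p = 0.033). Over both sorts its log2 difference was -0.81 (adjusted p = 0.382). The interaction tests of the 5 Wnt genes, Ptpro, Ramp1 and Cblif gave unadjusted p-values between 0.0616 and 0.679, which does not show that the sorts act alike. Within the GFP+ libraries alone the log2 differences of Sp5, Tnfrsf19 and Ptpro were 1.49, 1.10 and 2.01, and within the Epcam+ libraries alone 0.98, 0.86 and 2.20. In the GFP+ libraries alone 2 of the 14 Wnt feedback and target genes passed as higher, Sp5 and Tnfrsf19, beside 0.666% of all genes tested there, and in the Epcam+ libraries alone 0 did, beside 0.178%. Without Epcam+ 2 the interaction passed for 37 genes, without Epcam+ 1 for 22, without GFP+ 1 for 6 and without GFP+ 2 for 2.

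The same split was made in cluster 5, the other chief cell cluster, whose cells took no part in the tests above. It held 131 cells with an Lgr5 UMI and 147 without, from the same 4 libraries, with a median of 29204 UMIs per cell. Of 6640 genes tested 7 passed (0.105%), 3 of them higher (0.0452%) and 4 lower in detected cells (0.0602%). With cells that Scrublet called doublets left out, 68 of 5580 passed (1.22%), 44 higher (0.789%) and 24 lower (0.43%). With all cells kept, Ptpro was among the 7 calls. It stood at 37.7, 22.8, 37.9 and 14.0 CPM in detected cells, against 4.22, 7.14, 7.43 and 6.34 CPM in undetected cells, without overlap (log2 difference 2.07, SE 0.29, edgeR adjusted p = 0.0104). Sp5, Tnfrsf19 and Ascl2 were higher in the detected cells of 4 of 4 libraries with log2 differences of 0.99, 0.94 and 0.74, but none passed (adjusted p = 0.326, 0.326 and 0.737). Of 13 tested Wnt feedback and target genes 12 were above 0 and 0 passed. Without the doublet calls 12 of 12 were above 0 and 2 passed, Sox9 (log2 difference 0.63, adjusted p = 0.00524) and Slc12a2, which are not among the 5 called in cluster 1. Cblif stood at 11755, 10157, 11533 and 9722 CPM in detected cells, against 6598, 6453, 5499 and 7397 CPM in undetected cells (log2 difference 0.74, SE 0.11, adjusted p = 0.128), and passed without the doublet calls (log2 difference 0.79, adjusted p = 5.41e-05). Fabp5 was lower in 4 of 4 libraries, with a log2 difference of -1.28 (SE 0.11, adjusted p = 6.97e-05), and did not pass without the doublet calls (adjusted p = 0.134). Some genes called in cluster 1 had the other direction in cluster 5. Among them Selenop was at 0.23, Gpx1 at -0.19, Bag3 at -0.22 and Tubb4b at 0.06, and none of them passed. Try4 and Try10 had log2 differences of -1.52 and -0.63 and did not pass. In Epcam+ 2 both were higher in detected cells (367 against 174 CPM and 117 against 38.7 CPM). Whether the differences of cluster 1 and cluster 5 are unequal was not tested.

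**Figure D5:**
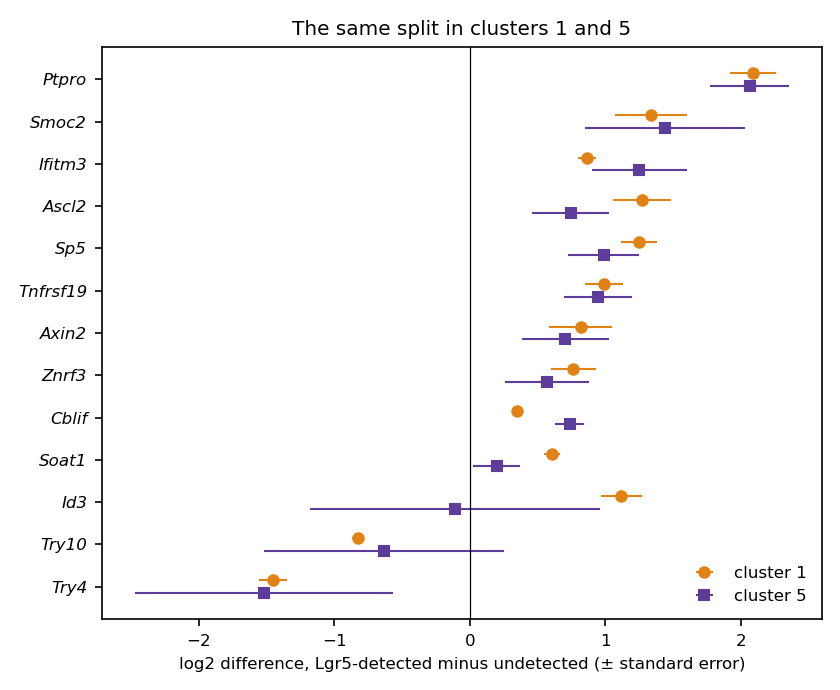
Log2 difference between Lgr5-detected and undetected cells (x axis, with the standard error as bars) of 13 genes in cluster 1 (circles) and cluster 5 (squares). Ptpro is at 2.09 in cluster 1 and 2.07 in cluster 5, and Id3 is at 1.12 and -0.11.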

How the data were processed

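Single-cell RNA-seq (10x Genomics 3′, HiSeq2500) was available for 2 GFP+ and 2 Epcam+ libraries. The authors deposited raw UMI counts, made with Cell Ranger 3.0.2 on mm10, and their cluster of each cell. Cells with more than 15% mitochondrial counts, with more than 8000 or fewer than 1500 genes, or with a Ptprc or Pecam1 count had been removed. The table held 17712 genes (21 with no count) in 4449 cells, and the library totals were 35571141, 47222033, 73876885 and 79455225 UMIs. In all, 4 cell barcodes occurred in more than 1 library, none of them in cluster 1.

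Cluster 1 counts were summed per library and Lgr5 group and tested without Lgr5 in edgeR 4.0.16 (R 4.3.3) with filterByExpr, TMM factors, the robust quasi-likelihood test (two-sided), the library as a block and Benjamini-Hochberg adjustment at 0.05 over all genes tested. The detected and undetected cells of a library share its animals and its handling, so the library is the pairing. The study tested single cells with a Wilcoxon test, and cells were not treated as replicates here. Alternatives used DESeq2 1.42.0, limma 3.58.1 (trend, on log2 of the mean per-cell CPM plus 1), other scalings and filters, cells matched within 0.25 log2 units of UMIs, and thinned cells. Scrublet in scanpy 1.11.5 called 77 of all cells doublets (1.73%), 9 of them in cluster 1 (5 Lgr5-detected). They were kept unless stated.

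Named were the 10 largest rises and falls past the threshold (same direction in all 4 libraries, at least 10 CPM, no cell with over 25% of the UMIs), members of the Wnt and reserve lists, up to 6 called and 4 most abundant members of each other list (some given by counts or range), and genes past the threshold in the interaction test. Fabp5 came from the interaction. The members and lists were chosen with earlier results of these data known. Ptpro, Ramp1, Id3, Pcp4l1, Sgk1 and Gcnt3 were singled out after their values were seen. The scripts were tested on simulated data. Sequences are RefSeq's, and gene coordinates are GENCODE vM21's on GRCm38 (mm10), in which the symbol Cblif was not matched.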

Additional observations from a re-analysis of the deposited data

Results flagged for a closer look

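Of 100 groups of 4 library values that were looked at for a value far from the other 3 (a gap to the nearest of them, over the whole range, above Dixon's 95% critical value, which chance gives in about 1 of 20), 8 had such a value. In Lgr5-detected sums these were Axin2 in GFP+ 1 (3.13 CPM, the others 2.02 to 2.08), Selenop in GFP+ 2 (210 CPM, the others 176 to 178), Furin in GFP+ 2 (744 CPM, the others 851 to 871) and Rplp1 in GFP+ 2 (717 CPM, the others 649 to 659). In undetected sums they were Lpl in GFP+ 1 (35.2 CPM, the others 39.6 to 39.9), Sox9 in Epcam+ 2 (29.3 CPM, the others 27.2 to 27.4), Id3 in Epcam+ 1 (5.64 CPM, the others 2.80 to 3.02) and Try5 in Epcam+ 2 (23.2 CPM, the others 1.48 to 3.19), where 1 cell held 69.9% of the Try5 UMIs of all undetected cells.

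The effect of Lgr5 detection differed between the sorts for Fabp5, whose log2 difference was 0.68 larger in GFP+ than in Epcam+ libraries. The log2 differences of the libraries were -0.60 and -0.37 in GFP+ 1 and 2, and -1.03 and -1.28 in Epcam+ 1 and 2 (log2 of CPM plus 0.5). Over the alternatives its adjusted p in this test ran from 5.07e-07 to 1.0.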

How the results depend on the processing

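Against 86 calls, the number of genes called was 30 in DESeq2, 23 in limma-trend on the mean per-cell CPM, 187 with no filter, 54 with cells matched on UMIs outside the 3 genes, 49 with thinned cells, and 30 within the Epcam+ libraries. With exactly 1 Lgr5 UMI, an alternative chosen after seeing the data, it was 12, and leaving out a library gave 55 to 88. The fit with no replicate block called 11 genes, 9 of them among the 86, so most calls rest on the pairing of both groups within a library. The other counts lay within 1.5 times, from 72 with 10 counts in every sum to 127 with 2 or more Lgr5 UMIs. Of the reserve markers, 2 passed as higher in DESeq2 and 1 with no replicate block, against 3, and of the secretory products 2 higher and 2 lower in DESeq2 and 0 with no replicate block, against 2 and 4. For the difference between the sorts, against 1 call, there were 0 with 2 or more UMIs, 0 in DESeq2 and 0 in limma-trend, 2 with 10 counts in every sum and 2 with library totals, 3 with RLE size factors, 3 without Clps, Pla2g1b and Pgc, 3 without doublet calls, 5 with cells matched outside the 3 genes, 19 with no filter, and 2 to 37 with a library left out. Cluster 5, also added after seeing the data, had 7 calls and 68 without doublet calls.

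Turns of direction occurred for Id3, at -0.25 with 2 or more UMIs, and for 4 genes that did not pass. Sox9 was at 0.073 with exactly 1 UMI, 0.017 with library totals, 0.12 matched outside the 3 genes, 0.38 with thinned cells, and -0.082 to 0.078 with a library left out. Bhlha15 was at -0.025 in limma-trend. Gper1 was at 0.064 with 2 or more UMIs, 0.036 with library totals, and -0.076 to 0.051 with a library left out. Bmi1 was at 0.043 with 2 or more UMIs, 0.0041 in DESeq2, 0.030 with library totals, 0.12 in limma-trend, 0.015 with thinned cells, and -0.12 to 0.10 with a library left out. The cause of these changes was not tested.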
